A study of Mus musculus with 6 samples.

Results

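The CDK inhibitors and the retinoblastoma family form the brake on entry into the cell cycle. They are taken here by gene symbol and comprise 10 of the 16894 genes listed in the data. The 10 genes are the CIP/KIP inhibitors Cdkn1a, Cdkn1b and Cdkn1c, the INK4 inhibitors Cdkn2a, Cdkn2b, Cdkn2c and Cdkn2d, and the pocket proteins Rb1, Rbl1 and Rbl2. All 10 passed the filter on low values (at least 0.5 CPM in at least 3 libraries), as did 14776 genes in all.

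Bulk RNA-seq measured 3 libraries of control FAPs and 3 libraries of senescent FAPs. FAPs, or fibroadipogenic progenitors, are muscle-resident mesenchymal cells from which fibroblasts and fat cells can arise. They had been sorted with magnetic beads for SCA-1+ cells that were negative for α7-integrin, CD31 and CD45 from the quadriceps, gastrocnemius and tibialis anterior of male and female C57BL/6 mice aged 3 to 6 months, and were grown with serum and bFGF at low oxygen. Senescent FAPs received 20 μM etoposide, a topoisomerase II poison that breaks DNA, for 48 h and then 5 more days in normal medium. The labels name no genetic change in either group, and what the control FAPs received in place of etoposide is not given in the labels. Senescence was therefore that of cultured primary cells after 1 agent at 1 dose and 1 time. The labels number the libraries 1 to 3 in each group without saying which mice or cultures they came from, so p-values measure the spread between these libraries, which may be technical.

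Cyclin-dependent kinases (CDKs) drive the cell from G1 into S phase by phosphorylating the pocket proteins pRB, p107 and p130. Until then the pocket proteins hold E2F factors at the promoters of DNA replication and cell cycle genes and keep those genes low. INK4 proteins bind CDK4 and CDK6, whereas CIP/KIP proteins bind complexes of cyclins with CDK2 and other CDKs. p21, encoded by Cdkn1a, is a direct target of p53, the factor that responds to DNA damage, and p16, encoded by Cdkn2a, is a widely used marker of senescent cells.

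Values are CPM, read counts relative to the scaled size of the library. Reads on genes numbered 41412179 to 59912520 per library, so that 1 read was worth 0.0167 to 0.0225 CPM, and the members received 87 reads (Cdkn1c) to 60812 reads (Cdkn1a) in a library. Log2 fold changes are senescent minus control on the log2(CPM + 0.5) scale, with the standard error (SE), and adjusted p-values are from limma with Benjamini-Hochberg adjustment over all 14776 genes tested. That scale understates the change of low genes. The control libraries differed among themselves in the expression of cycling genes. The proliferation marker Mki67 was at 125, 247 and 101 CPM in control replicates 1, 2 and 3 and at 19.04, 9.80 and 9.27 CPM in senescent replicates 1, 2 and 3. Control replicate 2 was the highest control library for 28 of 28 E2F target genes of S phase.

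The brake did not move as a unit. In senescent compared to control FAPs, Cdkn1a, Cdkn1c, Rb1 and Rbl2 rose, Cdkn1b, Cdkn2c, Cdkn2d and Rbl1 fell, and Cdkn2a and Cdkn2b did not pass the test. Thus 4 members were higher and 4 lower at an adjusted p under 0.05 (limma), 80% of the 10, where 46.1% of all genes tested passed, 21.8% higher and 24.3% lower. The groups did not overlap for 8 of the 10 members, of which 4 were higher and 4 lower in senescent FAPs, against 57.4% of all genes tested, 26.5% higher and 30.9% lower. With a log2 fold change beyond 1 and an unadjusted p under 0.01 as the threshold, 2 members were higher and 4 lower, against 6.93% and 3.9% of all genes tested. The median log2 fold change was 0.21 over the members and -0.03 over all genes tested. In bulk RNA, fewer cycling cells in a culture and less RNA of a gene per cell cannot be told apart, and this holds for every member described here.

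**Figure D1:**
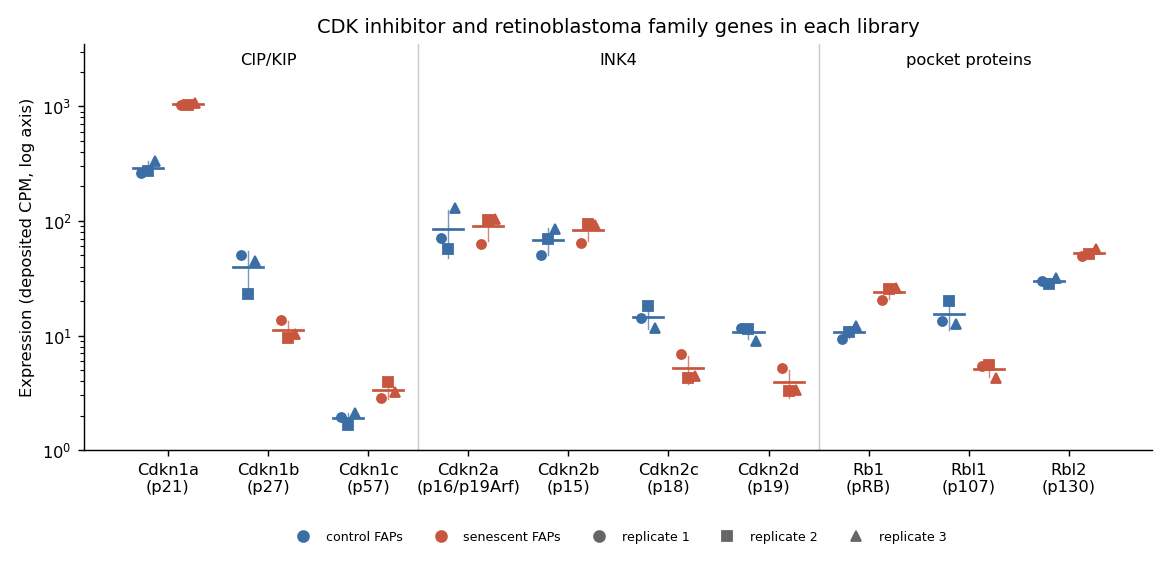
Expression of the 10 genes in each library, in deposited CPM on a log axis. Circles, squares and triangles are replicates 1, 2 and 3, horizontal bars are group means and vertical bars are ±1 SD over 3 libraries. The blue and red points are fully apart for 8 genes and overlap for Cdkn2a and Cdkn2b.

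Among the CIP/KIP inhibitors, p21 and p27 moved in opposite directions. Cdkn1a (p21, which stops CDK2 complexes after damage; ENSMUSG00000023067.14, chr17:29090976-29100727, plus strand, GRCm38) was at 259, 274 and 336 CPM in control replicates 1, 2 and 3 and at 1036.5, 1017 and 1060.2 CPM in senescent replicates 1, 2 and 3. Every senescent library was above every control library, and the senescent libraries lay within 1.042-fold of each other. The mean rose 3.58-fold, from 289.9 ± 40.5 to 1038 ± 21.4 CPM (SD, n = 3 per group). The log2 fold change was 1.85 (SE 0.11), with an adjusted p of 0.000101 (limma), and 1.54% of all genes tested had a higher one. Cdkn1a shares 273 exonic bases with AC167363.2 on the opposite strand, which is not in the table of values.

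Cdkn1a has 2 transcription starts in the RefSeq promoter table (GRCm38.p6), and the 300 bases around the upstream one are shown because they hold the only close match to the p53 consensus in the 11 windows found for 8 of the members. The window covers chr17:29090729-29091028 on the plus strand, 250 bases before to 50 bases after the start, and the capitals mark the match.
Cdkn1a upstream start: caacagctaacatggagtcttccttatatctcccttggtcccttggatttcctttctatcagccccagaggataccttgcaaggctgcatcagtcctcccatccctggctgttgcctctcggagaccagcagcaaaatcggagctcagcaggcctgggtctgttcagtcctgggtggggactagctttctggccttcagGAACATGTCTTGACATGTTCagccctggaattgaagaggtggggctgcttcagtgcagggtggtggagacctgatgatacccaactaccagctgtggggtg
The match begins 51 bases before the start and differs from the p53 consensus (20 letters, a repeat of the same ten-letter site without a spacer) at 1 letter. Such a match with at most 1 mismatch stood in 29 of 32851 promoter windows of this length, or 0.0883%. The motifs searched were chosen with these windows already seen, and a match is a description of the letters, not a measured binding site.

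Cdkn1b (p27, which holds CDK2 inactive in resting cells; ENSMUSG00000003031.14, chr6:134920401-134925513, plus strand) was at 50.9, 23.1 and 44.9 CPM in control replicates 1, 2 and 3. In senescent replicates 1, 2 and 3 it was at 13.6, 9.60 and 10.3 CPM. The groups did not overlap, but control replicate 2, the library highest in cycling genes, had less than either other control library. The mean was 3.55-fold lower in senescent FAPs, 11.2 ± 2.11 against 39.6 ± 14.6 CPM (SD, n = 3 per group). The log2 fold change was -1.72 (SE 0.28), with an adjusted p of 0.00262 (limma), and it was -2.06 without control replicate 2. p27 is also controlled through the stability of the protein, which RNA does not show.

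Cdkn1c (p57, an imprinted inhibitor of CDK2 complexes; ENSMUSG00000037664.13, chr7:143458339-143461050, minus strand) was the member with the fewest reads. It was at 1.94, 1.67 and 2.10 CPM in control replicates 1, 2 and 3 and at 2.86, 3.91 and 3.20 CPM in senescent replicates 1, 2 and 3. The groups did not overlap, and the mean rose 1.74-fold. The log2 fold change was 0.66 (SE 0.16), with an adjusted p of 0.0136 (limma). Without senescent replicate 2, the highest library, it was 0.55 with an adjusted p of 0.0575 (limma), so the call was not kept without that library. Leaving out that library also called the fewest of all genes higher, 2130 against 3218 with all libraries (limma). An antisense transcript on the opposite strand, Gm44732, covers 625 exonic bases of Cdkn1c. The library kit kept strand, but whether counting used it is not given in the sources used here.

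Per kilobase of exon, p21 made up 88.7 to 94.5% of the summed CIP/KIP level in the control and 98.9 to 99.0% in the senescent libraries. The share of p27 went from 4.75 to 10.4% in control libraries to 0.558 to 0.772% in senescent libraries. The level of Cdkn1a per kilobase was 8.54 to 19.9 times that of Cdkn1b in control libraries and 128.0 to 177 times in senescent libraries. These RNA shares say nothing of protein amounts, which were not measured in these libraries.

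The INK4 genes split into a pair that fell and a neighbouring pair that did not pass the test. Cdkn2a and Cdkn2b lie side by side on the minus strand of chromosome 4, at chr4:89274471-89294653 (ENSMUSG00000044303.6) and chr4:89306299-89311039 (ENSMUSG00000073802.5), with 11645 bases between them. Cdkn2a encodes p16, an inhibitor of CDK4 and CDK6, and p19Arf, an unrelated protein that protects p53 by binding MDM2. The transcripts start 12461 bases apart, each with its own exon 1, and join it to the same exon 2, read in another frame.

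**Figure D2:**
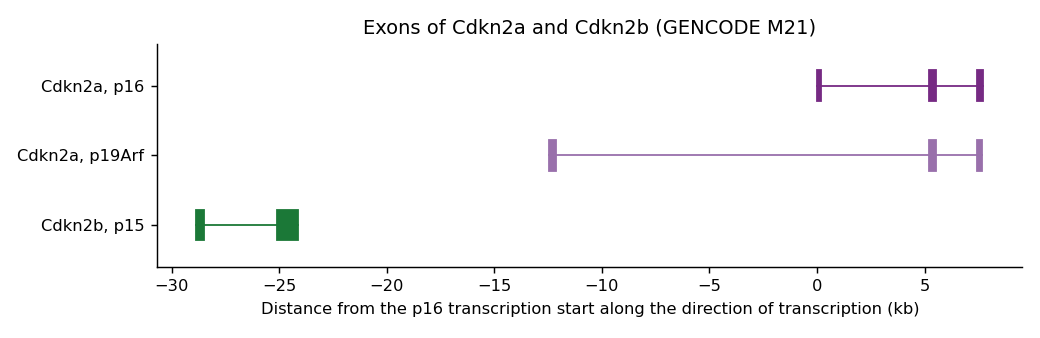
Exons (boxes) and introns (lines) of the p16 and p19Arf transcripts of Cdkn2a and of Cdkn2b in GENCODE M21, plotted by distance in kb from the p16 transcription start along the direction of transcription. The p16 and p19Arf transcripts differ in exon 1 and share exon 2 and most of exon 3.

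The junctions of exon 1 with exon 2 are shown because they are the stretch at which the transcripts can be told apart. The lower case letters are the last 30 bases of exon 1 and the capitals are the first 30 bases of exon 2, read from GENCODE M21 on GRCm38.
p16 (chr4:89281986-89282015 joined to chr4:89276956-89276985, minus strand): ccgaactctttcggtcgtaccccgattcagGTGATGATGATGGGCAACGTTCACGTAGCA
p19Arf (chr4:89294334-89294363 joined to chr4:89276956-89276985, minus strand): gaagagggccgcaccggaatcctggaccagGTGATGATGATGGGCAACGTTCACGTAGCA
The capitals are identical, and the lower case parts are not. Before the junction p16 has 126 coding bases, a whole number of codons, and p19Arf has 190, which leaves 1 base over and shifts the frame. The transcripts share 575 bases, 67.5% of the p16 transcript and 64.2% of the p19Arf transcript. The deposited value is 1 number per gene, so the level of Cdkn2a below is the sum over both, and p16 was not measured apart from p19Arf.

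Cdkn2a was at 71.2, 56.5 and 129 CPM in control replicates 1, 2 and 3. In senescent replicates 1, 2 and 3 it was at 63.2, 102 and 104 CPM. The groups overlapped, since the highest library of all was control replicate 3, and the highest control library had 2.28 times the level of the lowest. The means were 85.5 ± 38.2 CPM in control FAPs and 90.0 ± 23.2 CPM in senescent FAPs (SD, n = 3 per group). The log2 fold change was 0.13 (SE 0.31, 95% interval -0.60 to 0.85), with an adjusted p of 0.765 (limma). That interval, 0.660-fold to 1.80-fold, leaves room for a change of either sign. Between libraries of the same number the log2 difference was -0.17, 0.85 and -0.30 for replicates 1, 2 and 3. Only the pair of replicate 2 showed a higher senescent level, and without control replicate 2 the log2 fold change was -0.13 with an adjusted p of 0.730 (limma). By qPCR, the study reported higher p16 expression in etoposide-treated than in control FAPs, a different measure from the gene-level value given here.

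Cdkn2b (p15, an inhibitor of CDK4 and CDK6 that responds to TGF-β) was at 49.99, 69.7 and 85.7 CPM in control replicates 1, 2 and 3. In senescent replicates 1, 2 and 3 it was at 64.4, 94.6 and 92.5 CPM. The groups overlapped, but in each of the 3 pairs of the same number the senescent library was the higher one, by 0.36, 0.44 and 0.11 on the log2 scale. The log2 fold change was 0.30 (SE 0.22, 95% interval -0.20 to 0.81), with an adjusted p of 0.282 (limma). With the replicate number as a block the same log2 fold change had an adjusted p of 0.0236 (limma), so the call on Cdkn2b depended on the pairing. Per kilobase, Cdkn2a was at 0.963 to 1.78 times the level of Cdkn2b in the control and 1.16 to 1.34 times in the senescent libraries.

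Cdkn2c and Cdkn2d encode p18 and p19, the INK4 inhibitors that cycling cells also express. Cdkn2c (ENSMUSG00000028551.14, chr4:109660876-109667189, minus strand) was at 14.2, 18.03 and 11.5 CPM in control replicates 1, 2 and 3 and at 6.85, 4.28 and 4.43 CPM in senescent replicates 1, 2 and 3. The groups did not overlap, and control replicate 2 was the highest library. The mean was 2.81-fold lower in senescent FAPs, with a log2 fold change of -1.41 (SE 0.22) and an adjusted p of 0.00206 (limma). Cdkn2d (ENSMUSG00000096472.2, chr9:21288410-21291407, minus strand), whose protein p19 is not the p19Arf of the Cdkn2a locus, was at 11.5, 11.4 and 9.03 CPM in control replicates 1, 2 and 3 and at 5.22, 3.31 and 3.35 CPM in senescent replicates 1, 2 and 3. Here too every senescent library was below every control library. The mean was 2.69-fold lower, with a log2 fold change of -1.34 (SE 0.20) and an adjusted p of 0.00158 (limma). Of the 4 INK4 genes, 0 were called higher by limma, also at an unadjusted p under 0.05. edgeR's quasi-likelihood test and DESeq2 also called 0 higher, but with the replicate block 1, Cdkn2b, was called higher. Each of these called 2 lower. The shares of all genes tested were 21.8% higher and 24.3% lower (limma).

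The pocket proteins moved apart as well, with p107 down and pRB and p130 up. Rb1 (pRB, the retinoblastoma tumor suppressor; ENSMUSG00000022105.6, chr14:73183673-73325822, minus strand) was at 9.42, 10.8 and 12.1 CPM in control replicates 1, 2 and 3 and at 20.3, 25.6 and 25.9 CPM in senescent replicates 1, 2 and 3. The lowest senescent library was above the highest control library. The mean rose 2.22-fold, with a log2 fold change of 1.11 (SE 0.14) and an adjusted p of 0.000841 (limma). Rb1 shares 488 exonic bases with Rcbtb2 and 408 with Lpar6, both on the opposite strand. Their own log2 fold changes were -0.18 (adjusted p = 0.155, limma) and -0.13 (adjusted p = 0.699, limma), and neither passed the test.

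Rbl2 (p130, the pocket protein of resting cells and part of the DREAM repressor; ENSMUSG00000031666.15, chr8:91070057-91123844, plus strand) was at 29.8, 28.1 and 32.0 CPM in control replicates 1, 2 and 3. In senescent replicates 1, 2 and 3 it was at 49.9, 51.9 and 56.6 CPM. The groups were apart and each was tight, with the highest library within 1.14-fold of the lowest in control FAPs and 1.13-fold in senescent FAPs. The mean rose 1.76-fold, with a log2 fold change of 0.81 (SE 0.09) and an adjusted p of 0.000488 (limma). Rbl2 shares 892 exonic bases with Gm45464, which is not in the table of values, and 693 with Aktip, both on the opposite strand. Aktip rose too, with a log2 fold change of 0.66 (SE 0.13) and an adjusted p of 0.00491 (limma). The part of shared reads in either value was not tested.

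Rbl1 (p107, the pocket protein whose own gene is an E2F target; ENSMUSG00000027641.13, chr2:157145893-157204534, minus strand) was at 13.3, 19.9 and 12.6 CPM in control replicates 1, 2 and 3 and at 5.42, 5.55 and 4.25 CPM in senescent replicates 1, 2 and 3. The groups did not overlap, and control replicate 2 was again the highest library. The mean was 3.01-fold lower in senescent FAPs, with a log2 fold change of -1.48 (SE 0.20) and an adjusted p of 0.00108 (limma). Per kilobase, Rbl2 was at 1.40 to 2.503 times the level of Rbl1 in control libraries and at 9.09 to 13.1 times in senescent libraries. Rbl1 went from 22.2 to 33.7% of the summed pocket protein level in control libraries to 4.88 to 7.14% in senescent libraries, while Rb1 went from 18.7 to 22.2% to 27.9 to 32.0%.

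Windows of 300 bases around the start were searched for the E2F motif TTTNNCGC, each N being C or G, on both strands. It stood in 2.26% of all 32851 promoter windows and in 3.69% of those of the genes tested. Of the 11 windows of the members, 2 held it, and both are shown with the motif in capitals (RefSeq, GRCm38.p6).
Rbl1 (chr2:157204485-157204784, minus strand): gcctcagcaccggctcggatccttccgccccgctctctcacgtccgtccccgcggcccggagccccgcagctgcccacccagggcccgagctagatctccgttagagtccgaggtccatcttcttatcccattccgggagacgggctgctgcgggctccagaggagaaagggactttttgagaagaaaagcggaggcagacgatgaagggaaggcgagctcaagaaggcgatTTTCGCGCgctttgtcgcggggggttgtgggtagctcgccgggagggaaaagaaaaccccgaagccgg
Cdkn2a, p19Arf start (chr4:89294570-89294869, minus strand): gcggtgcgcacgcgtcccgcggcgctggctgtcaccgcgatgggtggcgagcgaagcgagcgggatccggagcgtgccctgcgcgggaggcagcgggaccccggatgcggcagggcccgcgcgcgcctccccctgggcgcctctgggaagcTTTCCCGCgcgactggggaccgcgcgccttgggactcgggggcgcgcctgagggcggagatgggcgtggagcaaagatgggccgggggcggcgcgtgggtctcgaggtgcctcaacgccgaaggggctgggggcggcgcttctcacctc
The motif began 18 bases before the start in Rbl1 and 99 bases before it in Cdkn2a. Rbl1 fell, and Cdkn2a, as the sum of both transcripts, did not pass the test. The CHR motif TTTGAA, bound by the DREAM complex, stood in 17.9% of all windows on either strand and in 2 of the 11 windows, those of Cdkn2b, 161 bases before the start, and of Rbl2, 201 bases before it. Windows for Cdkn1c and Rb1 were not used here.

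**Figure D3:**
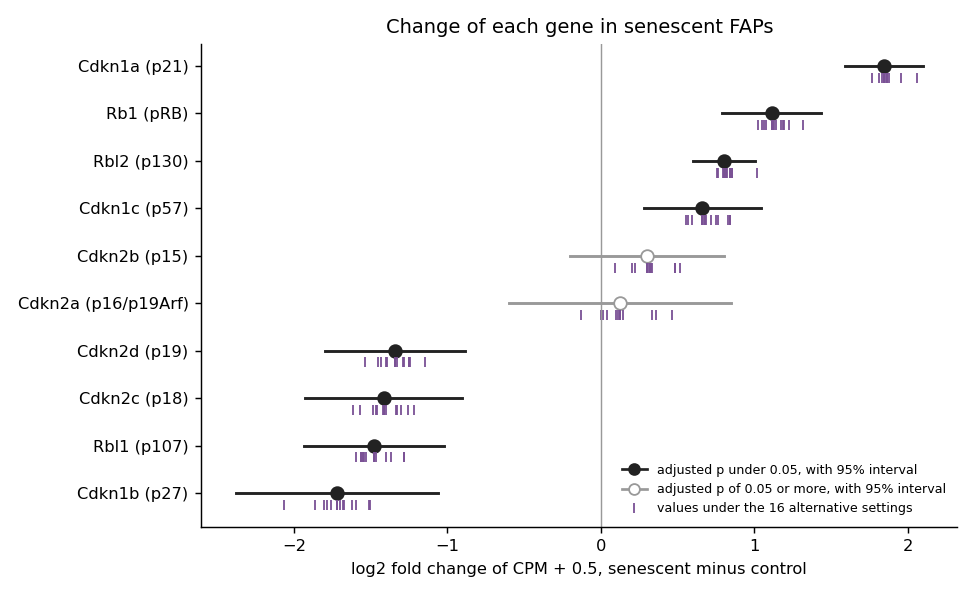
Log2 fold change of each gene, senescent minus control, with its 95% interval (circle and bar), and the values under 16 alternative settings (purple ticks). Filled circles had an adjusted p under 0.05 in limma. Of these genes, only Cdkn2a has ticks on both sides of 0.

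Levels of different genes were compared per kilobase of exon. In control FAPs the order was Cdkn1a at 106.7 ± 14.9 CPM per kb, Cdkn2a at 73.0 ± 32.6 and Cdkn2b at 49.2 ± 12.9 (SD, n = 3), and neighbours in this order overlapped. The next, Cdkn1b, was far below them at 8.70 ± 3.21 CPM per kb, and Cdkn2d at 6.78, Rbl2 at 6.09 and Cdkn2c at 5.44 each overlapped the neighbour above. Rbl1 at 3.14, Rb1 at 2.31 and Cdkn1c at 0.963 CPM per kb followed without overlap.

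In senescent FAPs Cdkn1a stood alone at 382 ± 7.89 CPM per kb, ahead of Cdkn2a at 76.8 ± 19.8 and Cdkn2b at 60.3 ± 12.2, which overlapped (SD, n = 3). Rbl2 at 10.7 and Rb1 at 5.14 CPM per kb came next, each apart from its neighbours. Cdkn2d at 2.52, Cdkn1b at 2.45, Cdkn2c at 1.93 and Cdkn1c at 1.68 CPM per kb overlapped one another in turn. Rbl1 moved from the eighth place to the last, at 1.044 CPM per kb. Summed over each class, the level per kb was 116 ± 15.7 in control and 386 ± 7.78 in senescent FAPs for CIP/KIP, 134 ± 40.9 and 142 ± 30.7 for INK4, and 11.5 ± 0.677 and 16.9 ± 1.18 for the pocket proteins (SD, n = 3 per group).

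**Figure D4:**
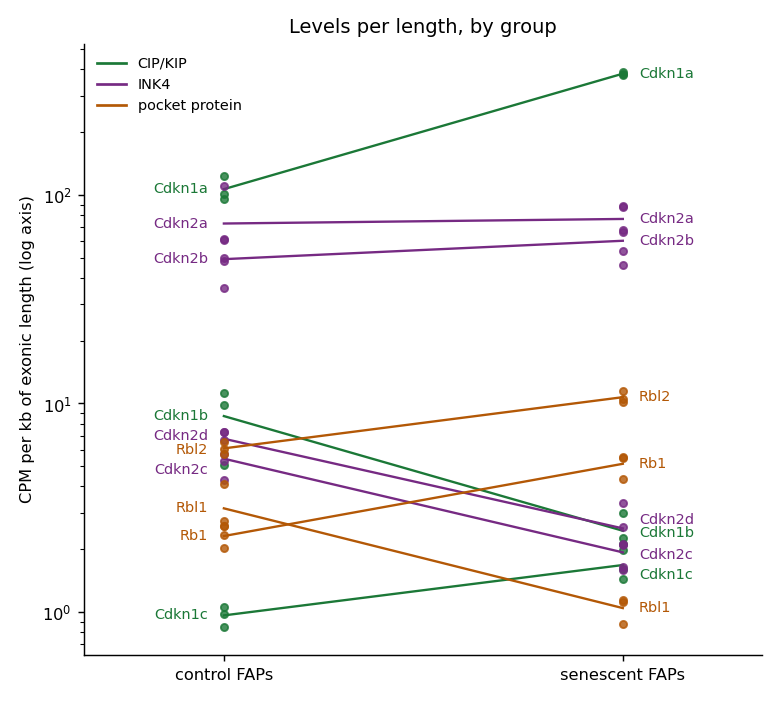
Level of each gene in CPM per kb of exonic length, on a log axis, in control and senescent FAPs. Points are libraries and lines join group means. Cdkn1a was highest in both groups, at 106.7 and 382 CPM per kb, and the line of Rbl1 crosses those of Rb1 and Cdkn1c.

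The kinases and cyclins on which the inhibitors act also moved apart. Of 13 CDKs and cyclins of G1 and S phase, 3 rose (23.1%) and 7 fell (53.8%), where 21.8% and 24.3% of all genes tested did (limma, adjusted p under 0.05), with a median log2 fold change of -0.28. Scaling by library totals alone called 33.8% of all genes higher and 13.1% lower, and 4 of these 13 genes higher and 6 lower. It is named below where it moves the count of a list. Ccnd1, the cyclin D1 partner of CDK4 and CDK6, was at 78.0, 193 and 82.6 CPM in control replicates 1, 2 and 3 and at 409, 476 and 570 CPM in senescent replicates 1, 2 and 3. Every senescent library was above every control library, with a log2 fold change of 2.15 (SE 0.33) and an adjusted p of 0.00180 (limma). Cdk6 rose, with a log2 fold change of 0.92 (SE 0.14) and an adjusted p of 0.00196 (limma). Ccnd3 rose by 0.31 (SE 0.10, adjusted p = 0.0309, limma), a call lost with no variance trend, without control replicate 3 or without any 1 of the senescent libraries. Ccnd2 had a log2 fold change of 0.35 (SE 0.14, adjusted p = 0.0790, limma) and overlapping groups, but was called higher with the replicate block, by DESeq2, with library totals alone and without control replicate 2.

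Cdk4 fell while Ccnd1 and Cdk6 rose, and Cdk2 fell too. Cdk4 was at 264, 263 and 238 CPM in control replicates 1, 2 and 3 and at 148, 145 and 138 CPM in senescent replicates 1, 2 and 3, a log2 fold change of -0.82 (SE 0.07, adjusted p = 0.000293, limma). Cdk2, the target of p21 and p27, was at 25.5, 25.02 and 21.99 CPM in control replicates 1, 2 and 3 and at 10.8, 10.1 and 9.74 CPM in senescent replicates 1, 2 and 3. Its log2 fold change was -1.20 (SE 0.10, adjusted p = 0.000269, limma). The cyclins that activate CDK2 fell with it, Ccne1 by 0.96, Ccne2 by 2.37 and Ccna2 by 3.84 on the log2 scale. p21 therefore rose in libraries in which its main kinase and that kinase's cyclins were at lower RNA levels.

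Downstream of the pocket proteins, 27 of 28 E2F target genes of S phase fell and 0 rose (limma), also at an unadjusted p under 0.05, with a median log2 fold change of -1.38. The background share called lower was 24.3%. The replication helicase genes Mcm3, Mcm5 and Mcm2 had log2 fold changes of -2.42, -2.71 and -2.02, and Dut, which keeps uracil out of DNA, of -1.05. The exception, Rrm2, a ribonucleotide reductase subunit named after its value was seen, had a log2 fold change of -0.50 (SE 0.23, adjusted p = 0.117, limma). edgeR's quasi-likelihood test and DESeq2 also called 0 higher and 27 lower, and with the replicate block all 28 were called lower.

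Of the E2F and DP factors themselves, 9 of 10 were tested. Of these, 4 fell (44.4%) and 0 rose, beside 24.3% and 21.8% of all genes tested (limma), but 4 fell and 3 rose with library totals alone. At an unadjusted p under 0.05, 3 were higher and 4 lower, and edgeR's quasi-likelihood test called 1 and DESeq2 called 2 higher. The atypical repressors E2f7 and E2f8 fell by 2.52 and 2.41, E2f4, the usual partner of p130, by 0.61, and Tfdp1, the DP1 partner of E2Fs, by 0.79 on the log2 scale. E2f1, the activator held by pRB, was at 28.2, 43.3 and 27.2 CPM in control replicates 1, 2 and 3 and at 40.3, 47.4 and 43.3 CPM in senescent replicates 1, 2 and 3. The groups overlapped through control replicate 2, and the log2 fold change was 0.43 (SE 0.18, adjusted p = 0.0765, limma). With the replicate block, 3 factors (E2f1, E2f6 and Tfdp2) were called higher. E2f1 was thus not among the genes that fell.

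The MuvB complex joins p130 in DREAM and B-Myb or FOXM1 in cycling cells. Of 7 genes of the complex and its partners, 5 fell (71.4%) and 0 rose, beside 24.3% and 21.8% of all genes tested (limma). When values were scaled by library totals alone, 2 fell and 1 rose. At an unadjusted p under 0.05 limma had 1 higher, and edgeR's quasi-likelihood test and DESeq2 each called 1 higher and 5 lower. Foxm1 and Mybl2, which replace p130 on the complex in cycling cells, fell by 2.27 and 1.90 on the log2 scale. Lin9, a core subunit, fell by 0.85, and Rbbp4, a histone-binding subunit of this and other complexes, by 0.38. The core subunits Lin37 and Lin52 were not called, with log2 fold changes of 0.09 and 0.41 (adjusted p = 0.693 and 0.0518, limma). Among 15 chromatin partners of pRB, 9 fell and 2 rose, though 5 fell and 5 rose with library totals alone. Dnmt1, the maintenance DNA methyltransferase, fell by 1.40, Suv39h1, a histone H3 lysine 9 methyltransferase, by 1.33, and Rbbp7 by 0.60, while the remodeling ATPase Smarca2 rose by 0.75 on the log2 scale (adjusted p = 0.000318, limma).

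Upstream of the inhibitors, of 12 genes of p53 and damage signaling 4 rose (33.3%) and 3 fell (25%), beside 21.8% and 24.3% of all genes tested (limma). The list had a median log2 fold change of -0.05. With library totals alone that median was 0.16, and 5 genes rose and 2 fell. Trp53 was at 81.9, 68.6 and 72.5 CPM in control replicates 1, 2 and 3 and at 76.9, 67.0 and 66.8 CPM in senescent replicates 1, 2 and 3. The groups overlapped, with a log2 fold change of -0.08 (SE 0.09, adjusted p = 0.513, limma). Mdm2, a p53 target like Cdkn1a and the ubiquitin ligase of p53, was at 109, 191 and 156 CPM in control replicates 1, 2 and 3 and at 433, 470 and 526 CPM in senescent replicates 1, 2 and 3. The groups were fully apart, with a log2 fold change of 1.68 (SE 0.19, adjusted p = 0.000628, limma). The checkpoint genes Chek1 and Mdc1 fell by 1.02 and 0.71, and Trp53bp1 rose by 0.42 on the log2 scale.

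For p27, 11 genes of its turnover gave 3 that rose (27.3%) and 4 that fell (36.4%), beside 21.8% and 24.3% of all genes tested (limma). With library totals alone 4 rose and 2 fell, and edgeR's quasi-likelihood test and DESeq2 each called 3 higher and 3 lower. Skp2, the F-box protein that marks p27 for degradation, was at 20.98, 23.1 and 20.4 CPM in control replicates 1, 2 and 3 and at 8.80, 6.51 and 7.65 CPM in senescent replicates 1, 2 and 3. It fell by 1.44 on the log2 scale (SE 0.13, adjusted p = 0.000312, limma), and its cofactor Cks1b fell by 1.25. The other subunits of the same ligase did not fall with them. Skp1a rose by 0.34 (adjusted p = 0.0111, limma), while Cul1 and Rbx1 had log2 fold changes of -0.06 and -0.10 (adjusted p = 0.573 and 0.323, limma). Ubac1, a subunit of another p27 ligase, fell by 0.35 (adjusted p = 0.00991, limma). Rnf123, in the same list, rose by 0.33 (adjusted p = 0.0434, limma), a call lost with the replicate block, with no variance trend and whenever any library was left out. Of the FOXO factors, which activate Cdkn1b, 3 of 4 were tested. Of these, 1 rose (33.3%) and 0 fell, beside 21.8% and 24.3% of all genes tested (limma). The counts were the same at an unadjusted p under 0.05 (limma), by edgeR's quasi-likelihood test and by DESeq2. The gene that rose was Foxo1, with a log2 fold change of 0.73 (adjusted p = 0.00624, limma). With library totals alone 2 rose and 0 fell.

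Polycomb complexes can repress the Cdkn2a and Cdkn2b locus. Of 23 Polycomb genes and other regulators of the locus, 5 rose (21.7%) and 7 fell (30.4%), near the 21.8% and 24.3% of all genes tested (limma). With library totals alone 8 rose and 3 fell. Ezh2, the histone H3 lysine 27 methyltransferase, was at 19.2, 29.04 and 17.95 CPM in control replicates 1, 2 and 3 and at 7.53, 6.74 and 6.32 CPM in senescent replicates 1, 2 and 3. It fell by 1.59 on the log2 scale (SE 0.19, adjusted p = 0.000699, limma), and Suz12, another subunit of the same complex, by 0.75. Ezh1, the paralog of Ezh2, rose by 0.78 and Cbx6 by 0.58. Bmi1, a Polycomb repressor of this locus, was at 35.9, 40.9 and 38.8 CPM in control replicates 1, 2 and 3. In senescent replicates 1, 2 and 3 it was at 41.0, 38.8 and 46.8 CPM. Its groups overlapped, with a log2 fold change of 0.13 (SE 0.10, adjusted p = 0.307, limma). The fall of Ezh2 and Suz12 stood beside a level of Cdkn2a whose groups overlapped, and a link between them was not tested.

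Cdkn1c lies in an imprinted cluster on chromosome 7. Of 6 genes listed as its neighbours, 4 were tested. Of these, 2 rose (50%) and 1 fell (25%), beside 21.8% and 24.3% of all genes tested (limma). With library totals alone 2 rose and 0 fell. Slc22a18, a transporter gene near Cdkn1c, was at 2.77, 2.15 and 2.495 CPM in control replicates 1, 2 and 3 and at 9.01, 11.2 and 11.7 CPM in senescent replicates 1, 2 and 3. The groups were far apart, with a log2 fold change of 1.90 (SE 0.16, adjusted p = 0.000233, limma), above the 0.66 of Cdkn1c. Cd81 rose by 0.61, Nap1l4 fell by 0.30, and Kcnq1ot1, the long noncoding RNA that silences the cluster on 1 parental allele, had a log2 fold change of 0.15 (adjusted p = 0.405, limma).

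**Figure D5:**
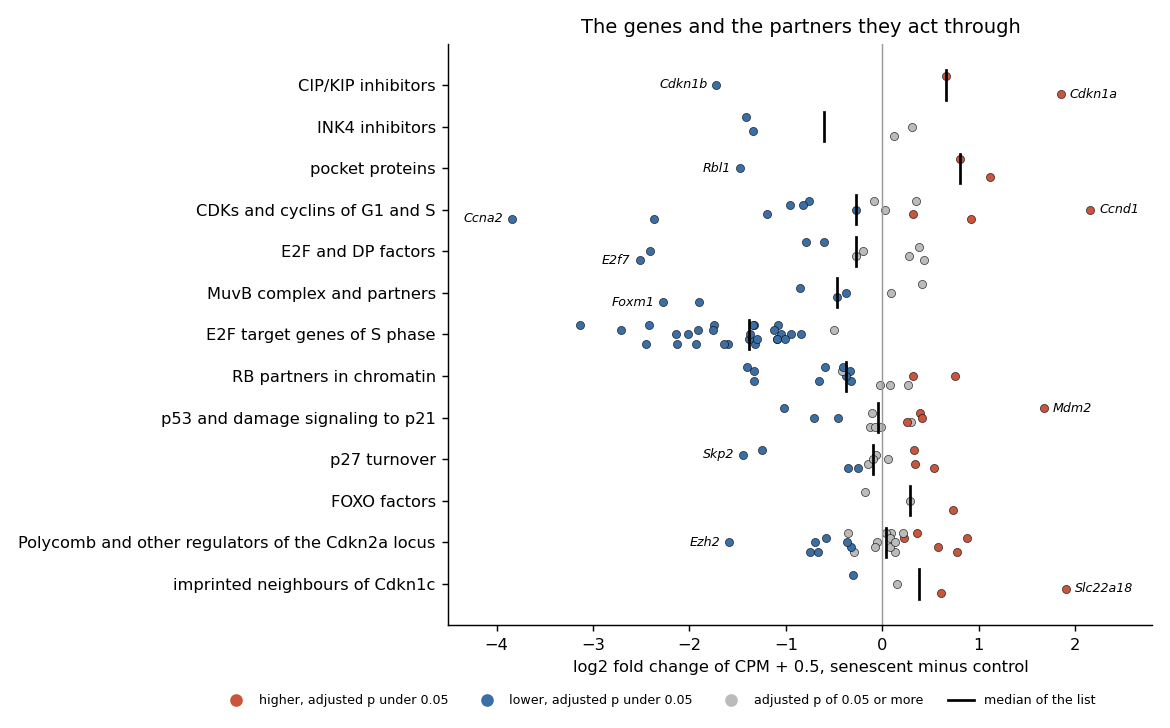
Log2 fold change (senescent minus control) of every tested gene in the 3 families and in the lists of genes they act through or are regulated by. Each point is a gene, red or blue where the adjusted p was under 0.05 in limma and gray otherwise, and the black line is the list's median. The E2F target genes are all left of 0, with 27 of 28 in blue, while the other lists hold points on both sides.

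Genes with the most similar pattern were sought for members called with a log2 fold change beyond 1, by the root mean square difference of centered log2(CPM + 0.5) over the 6 libraries. Nearest to Cdkn1a were Il15 (0.07), Trim34a (0.09) and Il13ra2 (0.10), and nearest to Cdkn1b were the collagen gene Col1a2 (0.08), C1qtnf6 (0.10) and Pck2 (0.13). Rbl1 was nearest to the replication genes Atad5 (0.08) and Cdc7 (0.09) and to Ezh2 (0.09). Rb1 was nearest to Vopp1 (0.04), Frrs1l (0.06) and Gm2a (0.06). Cdkn2c was nearest to Tagln2 (0.06), Cdkn2d (0.11) and Cx3cl1 (0.12), and Cdkn2d to Cx3cl1 (0.07), Itga5 (0.10) and Meox1 (0.11). Cdkn2c and Cdkn2d were thus near each other over these libraries, 1 member being among the 3 nearest genes of another only in this case. With 6 libraries in 2 groups, likeness rests mostly on the difference between the groups.

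Markers were checked against the FAP label. All 10 FAP markers were in the data, Pdgfra at 126 to 238 CPM in control and 182 to 254 CPM in senescent libraries. Of the 10, 5 rose (50%) and 1, Col1a1, fell (10%), beside 21.8% and 24.3% of all genes tested (limma). These background shares also hold for the marker lists below. The FAP markers summed to 15984 to 35145 CPM in control and 9165 to 14001 CPM in senescent libraries, most of it Col1a1 and Col3a1. Thy1 was at 489, 41.3 and 61.6 CPM in control replicates 1, 2 and 3 and at 615, 70.9 and 73.6 CPM in senescent replicates 1, 2 and 3, so replicate 1 stood apart from the others in both groups. Of 14 leukocyte markers, Ptprc, Tyrobp, Adgre1, C1qa, C1qb, Cd3e and Cd79a were not in the table of values, and of the 5 tested Cd53, Lyz2, Cd68 and Itgam were called higher, the background share being 21.8%. Itgam, at 0 to 0.0670 CPM in control libraries, passed the filter only through the senescent libraries. With library totals alone all 5 were called higher, beside 33.8% of all genes. The summed level of the 7 leukocyte markers in the data was 11.3 to 14.1 CPM in control and 27.004 to 33.1 CPM in senescent libraries. Of the myogenic markers, Pax7, Myf5, Myod1 and Myog were not in the table, and of 2 tested 1 rose. It was Itga7, which encodes the α7-integrin that the sort selected against, with a log2 fold change of 0.83 (adjusted p = 0.00771, limma). The summed level of the list was 14.3 to 19.3 CPM in control and 23.7 to 30.5 CPM in senescent libraries. Endothelial markers summed to 154 to 169 CPM in control and 185 to 201 CPM in senescent libraries. Of 5 tested, 2 were higher (40%) and 1 lower (20%). Pericyte and smooth muscle markers summed to 1251 to 1411 CPM in control and 1104 to 1157 CPM in senescent libraries. Of 7 tested, 2 were higher (28.6%) and 1 lower (14.3%), or 3 and 1 with library totals alone. The part of these cell types in the values of the members was not tested.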

How the data were processed

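RNA-seq libraries of 3 control and 3 senescent FAP samples were grouped and numbered by their labels, with dose, times and age from the study's methods. Per the study's methods and the labels, the authors made stranded mRNA libraries, aligned reads to mm10 (per the processing notes), counted reads per gene and scaled the counts with edgeR (version 3.10, R 3.6.0). The aligner, the counting tool and the use of strand are not given in the sources used here. The deposited signal is CPM of the effective library size, with scaling factors of 0.917 to 0.940 in control and 1.07 to 1.09 in senescent libraries. In each library 100% of the values came to whole reads (tolerance 0.01 reads). The plan assumed CPM, and the same test was kept for this signal. A line naming no gene (0.00409 to 0.00699% of reads) was left out.

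The test was limma (3.58.1, in R 4.3.3), two-sided and with a variance trend, on log2(CPM + 0.5) of the 14776 of 16894 genes that reached 0.5 CPM in 3 or more libraries. Genes were called at a Benjamini-Hochberg adjusted p under 0.05. The script was tested on simulated data. The members and gene lists were chosen with earlier results of these data known. Genes named beside the members were the 4 with the smallest p of each partner list, a set of direct partners and regulators (Cdk2, Cdk4, Cdk6, Ccnd1, Ccnd2, Ccnd3, Ccne1, Ccne2, E2f1, E2f4, Trp53, Mdm2, Skp2, Bmi1, Ezh2, Foxm1 and Mki67), the most abundant markers (those not named here are counted in their lists) and the 3 nearest patterns of each member called with a log2 fold change beyond 1. Exceptions named after their values were seen are Rrm2, E2f6, Tfdp2, Lin37, Lin52, Rnf123, Cul1, Rbx1, Pdgfra, Itgam and genes overlapping a member. Libraries of the same number deviated together (correlations of 0.54, 0.31 and 0.21 for replicates 1, 2 and 3). The value for replicate 3 was little above the 0.15 of control replicate 2 with senescent replicate 3. The labels state no pairing. The main test used none, and the replicate block was run as an alternative.

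Alternatives were pseudocounts of 0.1 and 1, no filter and a filter at 2 CPM, median-of-ratios factors, library totals alone, no variance trend, the replicate block, the recovered reads tested with DESeq2 (1.42.0) or edgeR's quasi-likelihood method (4.0.16), leaving out each library, and the longest transcript as gene length. Positions and lengths are from GENCODE M21 (GRCm38, the same assembly as mm10), and promoter windows from RefSeq (GRCm38.p6). With 3 against 3 libraries an exact permutation test cannot go below p = 0.1, and none was run.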

Additional observations from a re-analysis of the deposited data

How the results depend on the processing

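Over the 16 alternative settings, 4 members were called lower in every one, and 4 were called higher in every one except with the replicate block (5, with Cdkn2b at an adjusted p of 0.0236, limma) and without senescent replicate 2 (3, Cdkn1c being lost). Members called kept their direction in all of them, while Cdkn2a, which was not called, reversed without control replicate 2 (log2 fold change -0.13, the lowest of a range up to 0.46 when 1 library was left out). The replicate block changed no other member's call. In that setting 3576 of all genes tested were called higher and 3947 lower. Among all genes tested, library totals alone called 4992 higher and 1929 lower against 3218 and 3592, as this scaling moved the median log2 fold change of all genes by 0.20, from -0.03 to 0.17. Relative to that shift the log2 fold change of Cdkn1a was 1.86. Leaving out 1 library at a time gave 2130 to 3405 genes higher and 2416 to 3875 lower, the fewest without senescent replicate 2. The cause was not tested. With the longest transcript in place of all exons, Cdkn1a was at 139 and 499 CPM per kb, the order of the members in each group was the same, and Cdkn2a no longer overlapped Cdkn2b. Cdkn1c had the fewest reads of the members, 87 in its lowest library, and the part of counting error in its spread was not tested. With 3 libraries a group the interval of Cdkn2a spans 0.660-fold to 1.80-fold.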
